A study of Mus musculus with 6 samples.

Results

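The ligands of the tumor necrosis factor (TNF) superfamily are the molecules through which a T cell instructs or kills its neighbors, and 10 of them were followed here from the naive to the activated CD4+ T cell. The members were chosen by gene symbol (*Tnf*, *Lta*, *Ltb*, *Fasl*, *Cd40lg*, *Cd70*, *Tnfsf8*, *Tnfsf10*, *Tnfsf11* and *Tnfsf14*), and all 10 were found among the 14379 genes of the deposited table. RNA-seq had been carried out on 6 libraries of wild-type (WT) C57BL/6 mouse CD4+ T cells from lymph nodes and spleen. The 3 naive libraries (WT D0) came from freshly sorted resting cells, and the 3 activated libraries (WT D2) came from cells cultured for 48 hours with plate-coated antibody to CD3 and soluble antibody to CD28 under nonpolarizing conditions. No library holds cells kept in culture without antibody, so that the effect of the antibodies and that of the culture itself cannot be told apart. The labels give no mouse age, and the study's methods give young adult mice of both sexes for experiments of this kind. The labels do not tell whether a library pools several mice, and the p-values measure only the spread between these libraries.

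TNF superfamily ligands are made as trimers on the cell surface or shed from it, and each binds a receptor of the matching TNF receptor superfamily on another cell. *Tnf* and *Lta* encode inflammatory cytokines that share their receptors, *Ltb* anchors lymphotoxin to the membrane, and *Cd40lg*, *Cd70*, *Tnfsf8* and *Tnfsf14* encode costimulatory ligands. *Tnfsf11* encodes RANKL, the differentiation factor of osteoclasts, and *Fasl* and *Tnfsf10* (TRAIL) encode ligands of death receptors. In CD4+ T cells this family is known for help to B cells and dendritic cells, for the organization of lymphoid tissue and for activation-induced cell death.

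The deposited values lie on a log2 scale, are headed FPKM (fragments per kilobase of transcript, scaled to the library's total, a level per length) and come from a sheet named for the ComBat batch correction. Many genes share a base value of 1.99, which is taken here as the reference for low values, although values down to 1.17 occur. Levels are given as deposited log2 expression, and a linear level is the value after removing the log and subtracting the linear base value of 3.97. Values below the base were given a linear level of 0. The limma test covered the 10173 genes with 1 linear unit or more over the base in 3 or more libraries. A call required a change of 1.5-fold or more together with an adjusted p below 0.05. Naive replicate 3 and activated replicate 1 each stood apart within its group. Over the 10 ligands, naive replicate 3 differed from naive replicates 1 and 2 by 0.49 and 0.52 on average on the log2 scale, against 0.08 between these. Activated replicate 1 differed from activated replicates 2 and 3 by 0.30 and 0.34, against 0.14 between these. Naive replicates 1 and 2 shared identical values other than the base for 352 genes, and activated replicates 2 and 3 for 670, none of which was a ligand. Of the defining genes of CD4+ T cells, *Cd3e* and *Cd4* had a mean deposited log2 expression of 8.69 and 8.84 in naive and of 6.45 and 7.38 in activated cells. Of those of CD8 T cells, *Cd8a* lay near the base at 2.57 and 2.08, whereas *Cd8b1* was at 5.94 and 3.60. The summed linear level of 8 T cell markers was 4303 to 4940 in the naive and 1546 to 1679 in the activated libraries. Of 7 markers each, 7 of naive T cells and 5 of regulatory T cells were called lower, and 5 of activated T cells were called higher. The 8 T cell markers included 7 that were called lower as well. Over all genes tested, 21.6% were called lower and 31.2% higher.

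The ligands did not move together. Of the 10 ligands, 5 were called higher in activated CD4+ T cells (*Lta*, *Tnf*, *Tnfsf11*, *Cd70* and *Tnfsf14*), 3 were called lower (*Ltb*, *Cd40lg* and *Tnfsf10*) and 2 were not called (*Tnfsf8* and *Fasl*). Of all genes tested, 31.2% were called higher and 21.6% lower, 52.8% in all. Upper-quartile scaling turned the balance over all genes from 3175 higher and 2195 lower to 2570 higher and 2729 lower, and it left the calls of all 10 ligands as they were. The median log2 fold change of the ligands was 1.15, against 0.13 over all genes tested. For 9 of the 10 ligands the naive and activated libraries did not overlap, which was also the case for 76.8% of all genes tested. All 10 ligands passed the filter on low values, but *Cd70* passed only through the activated libraries, so that for this gene being tested and being higher are not independent.

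**Figure D1:**
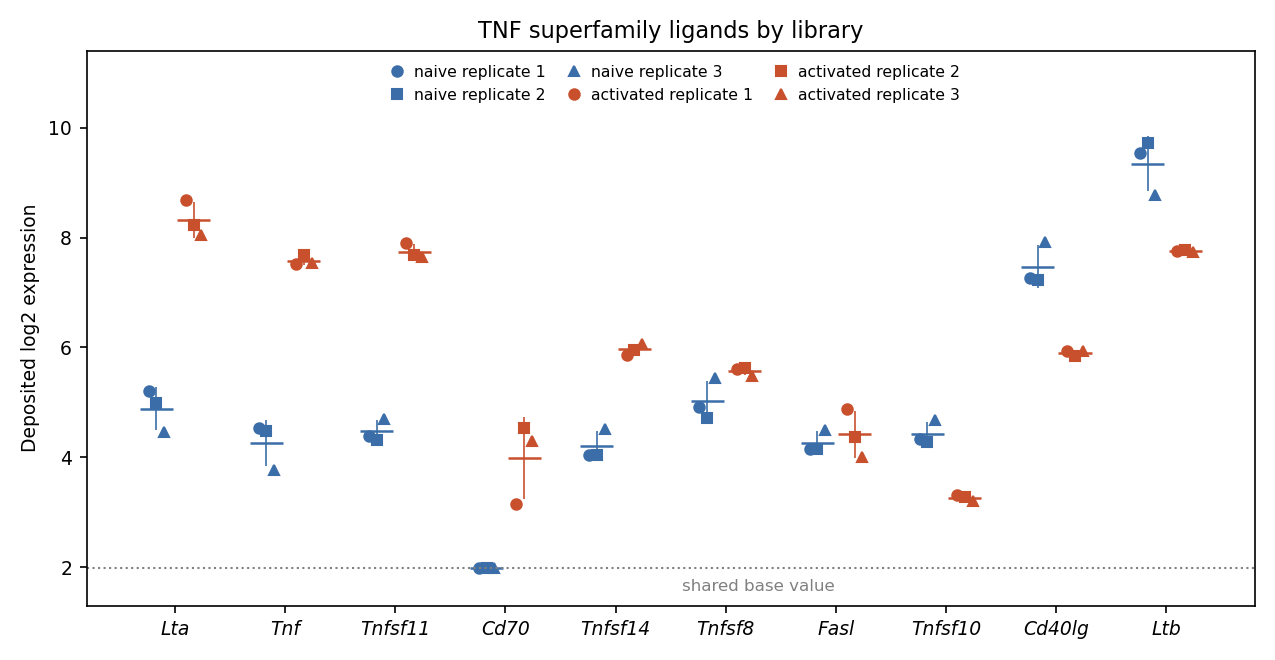
Deposited log2 expression of the 10 ligands (vertical axis) in 3 naive (blue) and 3 activated (orange) libraries, with the group mean (horizontal line) and 1 SD (vertical line) and the shared base value of the table dotted. *Lta*, *Tnf* and *Tnfsf11* lie between 3.77 and 5.21 in naive and between 7.52 and 8.68 in activated libraries, *Ltb* and *Cd40lg* fall, and only *Fasl* overlaps between the groups.

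The summed linear level of the 10 ligands did not separate the groups, while its make-up turned over. The sum was 1031, 1108 and 822 in naive replicates 1 to 3 and 1227, 1112 and 1040 in activated replicates 1 to 3 and thus overlapped between the groups. *Ltb* and *Cd40lg* together made up 86.6%, 88.6% and 82.0% of it in the naive libraries and 21.9%, 24.1% and 25.6% in the activated libraries. *Tnf*, *Lta* and *Tnfsf11* together made up 6.72%, 5.61% and 6.05% in the naive libraries and 67.1%, 62.8% and 61.3% in the activated libraries. The split between *Ltb* and *Cd40lg* also differed among the naive libraries, since *Ltb* alone held 72.1% and 75.4% in replicates 1 and 2 but 52.9% in replicate 3. These shares are a description, with no test.

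**Figure D2:**
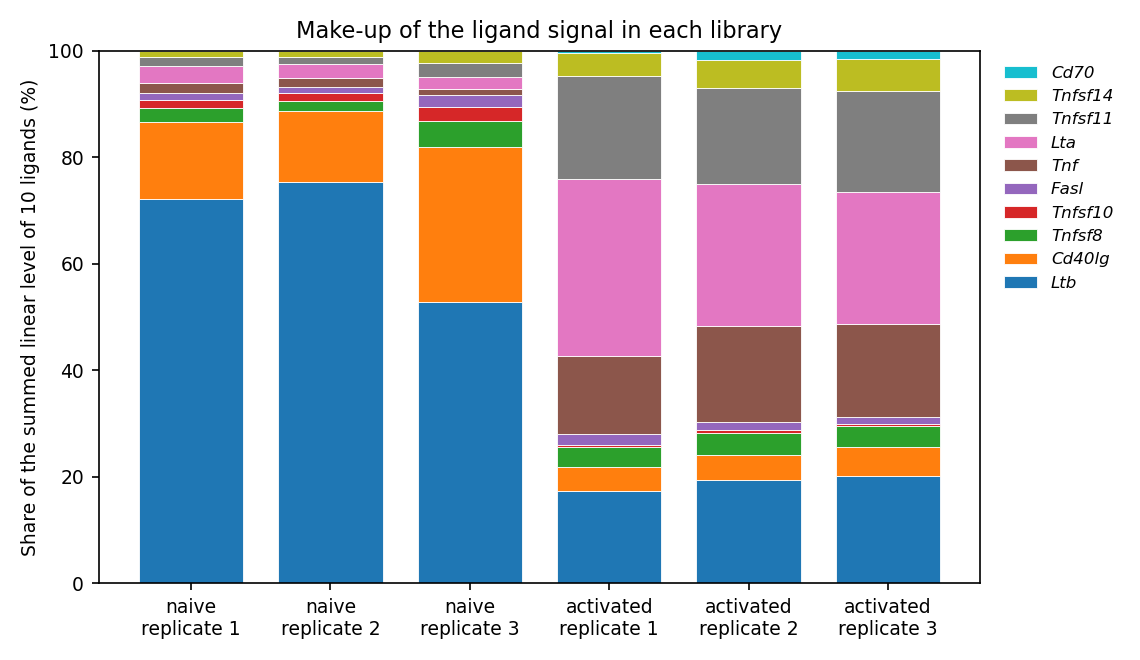
Share of each ligand in the summed linear level of the 10 ligands (vertical axis, percent) in each of the 6 libraries. *Ltb* (52.9% to 75.4%) fills most of each naive bar, whereas *Lta* (24.9% to 33.2%), *Ltb*, *Tnfsf11* (18.1% to 19.3%) and *Tnf* (14.7% to 18.1%) divide most of each activated bar.

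Ranked by level, the naive cells had *Ltb* first at 9.35 on the log2 scale (rank 140 of all genes in the table) and *Cd40lg* second at 7.47 (rank 481). Then followed a broad group from *Tnfsf8* at 5.03 to *Tnfsf14* at 4.20, in which the libraries of each ligand overlapped with those of the next, and *Cd70* at the base. In activated cells *Lta* came first at 8.32 (rank 372), and its libraries lay above those of *Ltb* at 7.75 (rank 559). *Ltb*, *Tnfsf11* at 7.75 and *Tnf* at 7.58 overlapped from one to the next. *Tnfsf14* at 5.96 and *Cd40lg* at 5.90 overlapped as well, *Tnfsf8* at 5.57 lay below them, and *Fasl* at 4.42, *Cd70* at 3.99 and *Tnfsf10* at 3.26 came last.

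The lymphotoxin and TNF genes lie side by side in the major histocompatibility complex of chromosome 17. In GRCm38/mm10, *Ltb* spans 35194439 to 35196320 on the plus strand, *Tnf* spans 35199381 to 35202007 on the minus strand, and *Lta* spans 35203165 to 35205351 on the minus strand. The gap is 3060 bases between *Ltb* and *Tnf* and 1157 bases between *Tnf* and *Lta*. No exon of any of the 10 ligands shares a base with an exon of another annotated gene. The sequences before the RefSeq start sites are shown because the neighbors *Tnf* and *Lta* rose while *Ltb* fell, with that of *Tnfsf11*, whose rise was close in size to that of *Tnf* and which lies on another chromosome. They are RefSeq sequences of the GRCm38 build, 250 bases each and 182 bases for *Ltb*, whose window ends where its GENCODE gene starts. Capitals mark the letters GGAAA, the core of sites for the activation-induced factor NFAT, the TATA box letters TATAAA, and the consensus of NF-kB, each on either strand.
Tnf, chr17:35202008-35202257, minus strand: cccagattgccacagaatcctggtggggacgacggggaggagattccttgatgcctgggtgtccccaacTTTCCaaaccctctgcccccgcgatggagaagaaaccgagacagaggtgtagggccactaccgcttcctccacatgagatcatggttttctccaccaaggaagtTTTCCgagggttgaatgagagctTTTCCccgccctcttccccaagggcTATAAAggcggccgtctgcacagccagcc
Lta, chr17:35205352-35205601, minus strand: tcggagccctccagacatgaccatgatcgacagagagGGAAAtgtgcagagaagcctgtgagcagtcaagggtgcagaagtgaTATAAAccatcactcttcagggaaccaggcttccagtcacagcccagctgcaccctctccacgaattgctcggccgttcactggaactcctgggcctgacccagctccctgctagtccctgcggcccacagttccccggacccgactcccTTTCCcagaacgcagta
Ltb, chr17:35194257-35194438, plus strand: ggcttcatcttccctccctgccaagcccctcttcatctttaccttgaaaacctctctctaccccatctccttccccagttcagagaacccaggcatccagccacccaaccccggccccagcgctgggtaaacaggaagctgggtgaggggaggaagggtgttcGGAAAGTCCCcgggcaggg
Tnfsf11, chr14:78308044-78308293, minus strand: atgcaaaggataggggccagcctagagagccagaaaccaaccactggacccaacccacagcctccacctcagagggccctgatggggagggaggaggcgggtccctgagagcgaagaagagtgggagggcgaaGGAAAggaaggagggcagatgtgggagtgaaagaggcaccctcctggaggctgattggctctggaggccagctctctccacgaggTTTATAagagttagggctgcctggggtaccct

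Of the 8 ligands with an entry in this table, all 8 hold GGAAA on either strand within 250 bases, as do 55.6% of 27025 promoters of the same length. *Tnf* holds it 3 times, at 181, 77 and 54 bases before the start, *Lta* holds it at 213 and 17 bases, and *Tnfsf11* holds it once at 117 bases. *Tnf* and *Tnfsf11* have TATAAA at 29 and 32 bases before the start, and *Lta* has it at 167 bases. These letters occur in 13% of the promoters. The NF-kB consensus was matched only before *Ltb*, at 87 bases, where it overlaps the GGAAA match, and in 7.01% of all promoters. TGANTCA, the letters of AP-1, was matched only before *Tnfsf14*, at 160 bases, and in 6.87% of all promoters. A match is a description of these letters and not a site, and windows farther from the start were not scanned.

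*Tnf*, the founding inflammatory cytokine of the family, had a deposited log2 expression of 4.53, 4.48 and 3.77 in naive replicates 1 to 3 and of 7.52, 7.68 and 7.54 in activated replicates 1 to 3. The groups lay far apart, and naive replicate 3 was the lowest library. The log2 fold change was 3.32 (SE 0.20, limma adjusted p = 8.6e-07), and the linear level was 11.9 times as high. *Lta*, which forms secreted lymphotoxin trimers that bind the same receptors, was at 5.21, 4.99 and 4.45 in the naive and at 8.68, 8.23 and 8.04 in the activated libraries. Here too naive replicate 3 was the lowest and activated replicate 1 the highest library. On the deposited scale its log2 fold change of 3.43 was the largest of the 10 ligands (SE 0.23, limma adjusted p = 1.4e-06). Its linear level was 12.2 times as high. With a pseudocount of 1 on the linear level *Cd70* rose more, by 3.65 against 3.57 for *Lta*, and the smaller pseudocounts gave the same order. Without naive replicate 3 and activated replicate 1, the log2 fold changes were 3.10 for *Tnf* and 3.03 for *Lta*. *Tnf* is also a gene of myeloid cells, whose 11 markers summed to a linear level of 93.5 to 267 in the naive and of 28.6 to 43.6 in the activated libraries. The 267 belongs to naive replicate 2, in which *S100a9* was at 7.13 on the log2 scale, against 4.65 and 1.99 in naive replicates 1 and 3. *S100a9* stood at the base in all activated libraries and was not among the markers tested. Of 7 myeloid markers tested, 3 were called lower and 0 higher. The 3 were *Lyz2*, *Ly6c2* and *Fcer1g*, with log2 fold changes of -1.86, -1.85 and -1.30. Over all genes tested, 21.6% were called lower. The part of these cells in the value of *Tnf* was not tested.

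*Ltb*, the membrane anchor of lymphotoxin, was at 9.55, 9.71 and 8.78 in the naive and at 7.75, 7.77 and 7.73 in the activated libraries. The activated libraries had an SD of 0.02 and lay below the lowest naive library. *Ltb* thus fell by 1.59 on the log2 scale (SE 0.22, limma adjusted p = 1.6e-04), a linear level 3.17 times as high in naive as in activated cells. Without naive replicate 3 and activated replicate 1 it fell by 1.88. *Ltb* is also expressed by B cells, and the summed linear level of 10 B cell markers was 16.5 to 53.7 in the naive and 11.2 to 19.3 in the activated libraries, against a mean linear level of *Ltb* of 672 in naive cells. The B cell sum was 16.5, 53.7 and 27.8 in naive replicates 1 to 3, of which replicate 2 also had the highest *Ltb* and replicate 3 the lowest. Of 7 B cell markers tested, 1 was called lower (*Jchain*, with a log2 fold change of -1.88) and 0 higher, against 21.6% of all genes tested called lower. The part of B cells in the result was not tested. In bulk RNA, fewer cells of a type and less RNA per cell cannot be told apart.

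*Lta* and *Ltb* form a heterotrimer on the cell surface that binds the lymphotoxin beta receptor and needs both products. *Lta* minus *Ltb* on the log2 scale was -4.33, -4.72 and -4.32 in the naive libraries and 0.93, 0.46 and 0.31 in the activated libraries. *Ltb* was thus the more abundant transcript in each naive library and *Lta* in each activated library. The difference between the groups was 5.02 on the log2 scale (p = 0.1 by an exact permutation test, two-sided, where 3 libraries against 3 allow no smaller p).

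**Figure D3:**
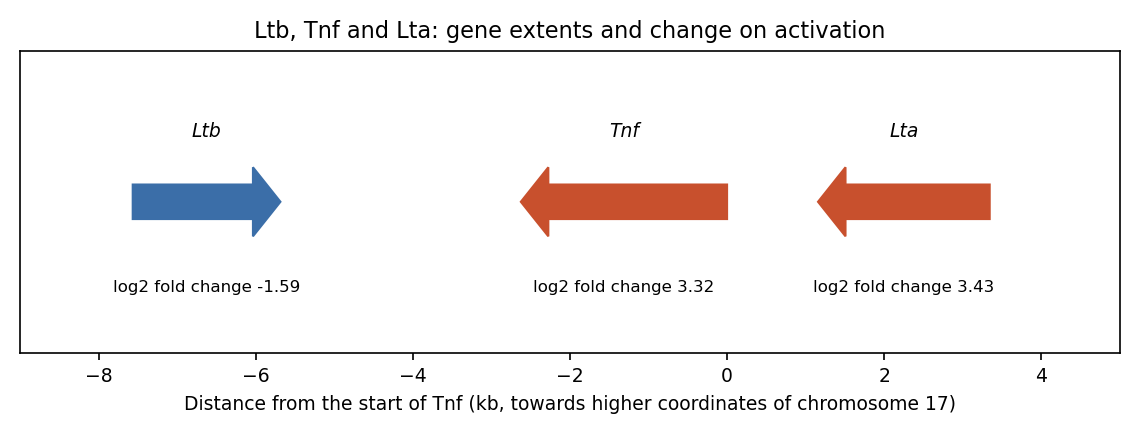
Map of *Ltb*, *Tnf* and *Lta* on chromosome 17 to scale, with the distance from the start of *Tnf* in kilobases on the horizontal axis, arrows pointing in the direction of transcription, and genes that rose in orange and that fell in blue. *Tnf* and *Lta* point the same way and had log2 fold changes of 3.32 and 3.43, and *Ltb* points the other way and had one of -1.59.

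*Tnfsf11* (RANKL; chromosome 14, 78277445 to 78308043) is known for the differentiation of osteoclasts and for the formation of lymph nodes, and is made by activated T cells. Its log2 expression was 4.39, 4.32 and 4.70 in the naive libraries and 7.91, 7.68 and 7.65 in the activated libraries. Its rise was the one with the smallest standard error among the 3 largest on the deposited scale. The log2 fold change was 3.28 (SE 0.15, limma adjusted p = 2.0e-07), and the linear level was 11.5 times as high. Unlike *Tnf* and *Lta*, it was highest among naive libraries in replicate 3.

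The costimulatory ligands moved in different directions. *Cd40lg* (chromosome X, 57212143 to 57224042) encodes the ligand by which CD4+ T cells help B cells and license dendritic cells. It was at 7.26, 7.23 and 7.93 in the naive and at 5.93, 5.84 and 5.94 in the activated libraries. All activated libraries lay below all naive libraries, and *Cd40lg* fell by 1.57 on the log2 scale (SE 0.19, limma adjusted p = 6.1e-05), or by 1.35 without naive replicate 3 and activated replicate 1. Even so, *Cd40lg* in activated cells stood at the 86.2 percentile of all genes in the table.

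*Cd70* (chromosome 17, 57145997 to 57149777), the ligand of CD27, stood exactly at the base value of 1.99 in all 3 naive libraries. It was at 3.15, 4.53 and 4.29 in the activated libraries, with replicate 1 the lowest. On the deposited scale its log2 fold change was 2.00 (SE 0.29, limma adjusted p = 2.1e-04), but this size is set by the base value: with pseudocounts of 1, 0.5 and 0.1 on the linear level it was 3.65, 4.58 and 6.84. The naive SD was 0, and *Cd70* passed the filter only through the activated libraries, so that its p-value is no independent support for a rise. No fold is given for this gene. *Tnfsf14* (LIGHT), a ligand of the lymphotoxin beta receptor and of HVEM, lies 39714 bases from *Cd70* on the same strand. It was at 4.04, 4.05 and 4.52 in the naive and at 5.86, 5.96 and 6.07 in the activated libraries, which did not overlap. It rose by 1.76 on the log2 scale (SE 0.16, limma adjusted p = 9.2e-06), and its linear level was 3.99 times as high.

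*Tnfsf8* (chromosome 4, 63831308 to 63861347), the ligand of CD30, was at 4.92, 4.72 and 5.44 in the naive and at 5.60, 5.63 and 5.48 in the activated libraries. The groups did not overlap, but naive replicate 3 came close to the lowest activated library. Its log2 fold change was 0.55 (SE 0.18, limma adjusted p = 0.022, 95% interval 0.13 to 0.96), under the 0.58 that 1.5-fold requires. It passed without naive replicate 3 (0.75) and without activated replicate 3 (0.59), and with each of the pseudocounts (0.59 to 0.61), so that this call rests on small choices.

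Of the death ligands, *Tnfsf10* fell and *Fasl* was not called. *Fasl* (chromosome 1, 161780689 to 161788495), the ligand of the death receptor Fas, was at 4.16, 4.15 and 4.50 in the naive and at 4.87, 4.37 and 4.01 in the activated libraries. It was the only ligand whose groups overlapped, with the highest and the lowest library both in the activated group. The log2 fold change was 0.15 (limma adjusted p = 0.54), and its 95% interval from -0.33 to 0.63 reaches a change of 1.5-fold. With upper-quartile scaling it was -0.04 and without activated replicate 1 it was -0.08, likewise not called. *Fasl* is also a gene of NK and CD8 T cells, and markers of these cells fell in the same libraries, among them *Klrd1*, whose log2 fold change was -2.96, and *Cd8b1*, whose log2 fold change was -2.34. *Klrd1* lay near the base in the activated libraries, at 1.70, 2.18 and 2.19. Of the 10 such markers, 8 were tested and 6 were called, 5 of them lower and *Nkg7* higher, against 52.8% called among all genes tested. The summed linear level of the 10 markers was 155 to 204 in the naive and 190 to 273 in the activated libraries. *Nkg7* alone had a mean linear level of 53.7 in the naive and of 226 in the activated libraries. It thus made up most of the activated sum. The part of these cells in the value of *Fasl* was not tested. *Tnfsf10* (TRAIL; chromosome 3, 27317028 to 27342427) was at 4.32, 4.28 and 4.67 in the naive and at 3.32, 3.27 and 3.20 in the activated libraries. It fell by 1.16 on the log2 scale in libraries that did not overlap (SE 0.13, limma adjusted p = 4.5e-05), and its linear level was 3.14 times as high in naive cells.

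Of 11 receptors on the list, 10 were in the table and 7 could be tested, of which 2 were called higher, 2 were called lower and 3 were not called (median log2 fold change -0.40). These 4 of 7 lie near the 52.8% called among all genes, and the count is no result about the receptors. *Cd27*, the receptor of CD70, fell by 1.98 on the log2 scale (SE 0.14, limma adjusted p = 1.8e-06), from 7.66, 7.62 and 7.30 in the naive to 5.55, 5.57 and 5.52 in the activated libraries. *Tnfrsf10b*, the TRAIL receptor of the mouse, rose by 1.49 on the log2 scale (SE 0.11, limma adjusted p = 2.3e-06), from 3.01, 2.84 and 2.88 to 4.41, 4.43 and 4.36. These receptors had the largest fall and the largest rise of the 7 tested, and for both pairs the ligand moved in the opposite direction. Naive and activated libraries did not overlap for these 4 genes, as for 76.8% of all genes tested. For *Cd70* this separation is not independent of the filter, which it passed only through the activated libraries. *Tnfrsf8* (CD30) rose by 0.87 on the log2 scale and remained at a low level, at 3.29 in activated cells.

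*Tnfrsf1a*, the TNF receptor with a death domain, fell by 0.68 on the log2 scale (limma adjusted p = 0.0022), while *Tnfrsf1b*, the other TNF receptor, had a log2 fold change of -0.40 and was not called, although it passed with upper-quartile scaling (-0.61). *Tnfrsf14* (HVEM) had one of -0.52 and was not called, although it passed without activated replicate 1 (-0.74) and with upper-quartile scaling (-0.71). It also passed with median-of-ratios scaling (-0.63), with each of the pseudocounts (-0.68 to -0.63) and with no fold threshold. Without naive replicate 3 and activated replicate 1 it passed as well (-0.75), so that this call rests on small choices. *Fas* had one of -0.17 (adjusted p = 0.24 from limma), with a level of 5.20 in naive and of 5.02 in activated cells. *Ltbr*, the lymphotoxin beta receptor of stromal and myeloid cells, *Cd40*, the receptor of B cells and dendritic cells, and *Tnfrsf11a* (RANK) lay under the filter, with group means between 1.94 and 2.40. The receptors for *Ltb*, *Cd40lg* and *Tnfsf11* were thus near the base in both groups.

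**Figure D4:**
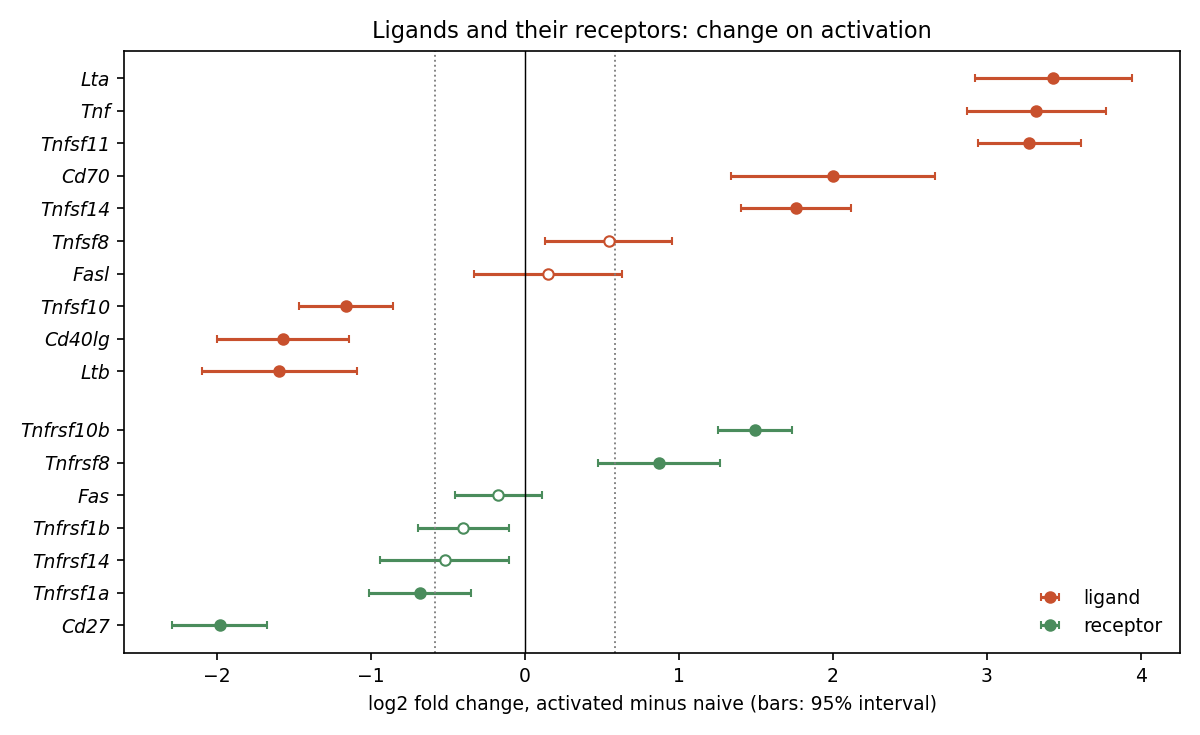
Log2 fold change of activated minus naive cells (horizontal axis) with its 95% interval for the 10 ligands (orange) and the 7 receptors tested (green), with filled points called, open points not called, and dotted lines at 1.5-fold. The ligands run from -1.59 (*Ltb*) to 3.43 (*Lta*) and the receptors from -1.98 (*Cd27*) to 1.49 (*Tnfrsf10b*).

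Of the 8 other ligands of the superfamily on the list, 7 were in the table and 2 passed the filter. Both were called higher, as were 31.2% of all genes tested, and 2 genes are too few for a statement about the list. *Tnfsf4* (OX40 ligand), known mainly from antigen-presenting cells, rose by 2.95 on the log2 scale (SE 0.18, limma adjusted p = 9.6e-07), from 2.23, 2.09 and 2.30 to 4.72, 5.39 and 5.37. It passed the filter only through the activated libraries, so that for *Tnfsf4* being tested and being higher are not independent. Of 9 markers of dendritic cells 5 could be tested, of which 2 were called lower (*H2-Aa* and *Cd74*) and 0 higher, against 21.6% of all genes tested called lower. The summed linear level of the 9 markers was 85.4 to 164 in the naive and 72.3 to 94.2 in the activated libraries. *Zbtb46*, a defining marker among them, went from 1.82, 1.82 and 1.86 to 2.38, 2.43 and 2.44, and its log2 fold change of 0.58 lay just under the threshold (limma adjusted p = 9.3e-06). All its naive values lay below the base, and it passed the filter only through the activated libraries, where its mean linear level was 1.36. The part of dendritic cells in the value of *Tnfsf4* was not tested. *Tnfsf9* (4-1BB ligand), the neighbor of *Cd70* on its other side at 38239 bases, rose by 0.80 on the log2 scale. Its exons share 192 bases with those of the antisense noncoding gene *Gm11110*, so that their reads may not be told apart.

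The genes that release or relay TNF signals included both rises and falls. Of 6 shedding enzymes and cofactors, *Sppl2b*, a protease that cleaves the membrane stub of TNF, rose by 1.21 and *Rhbdf1*, a trafficking factor of the TNF sheddase, rose by 0.69 on the log2 scale, and *Sppl2a* fell by 0.74. *Rhbdf1* passed the filter only through the activated libraries and lost its call with quantile normalization (0.58), median-of-ratios scaling (0.52) and upper-quartile scaling (0.50). The sheddase *Adam17* itself was at 4.51, 4.45 and 4.84 in the naive and at 4.59, 4.17 and 4.16 in the activated libraries, and its log2 fold change of -0.30 did not pass the test. Of 16 genes of TNF receptor signaling, 2 rose, 7 fell and 7 were not called. The median of the 16 log2 fold changes was -0.49, against 0.13 over all genes tested. Of all genes tested, 31.2% were called higher and 21.6% lower. Both the 3 of 6 and the 9 of 16 called lie near the 52.8% of all genes. *Casp8*, the initiator caspase of death receptors, fell by 1.55 and the adaptor *Traf5* fell by 1.37 on the log2 scale. *Traf2* and *Traf1*, further adaptors, rose by 0.68 and 0.64, but neither was called with upper-quartile scaling (0.50 and 0.44) or without naive replicate 3 (0.52 and 0.50).

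Some cytokine transcripts carry AU-rich elements in their 3' UTR, to which proteins of the Zfp36 (tristetraprolin) family bind and by which they shorten the life of the RNA. All members of this family on the list were called lower, as were 21.6% of all genes tested. *Zfp36* fell by 2.51 (SE 0.13, limma adjusted p = 3.5e-07), and the log2 fold changes of *Zfp36l2* and *Zfp36l1* were -2.19 and -1.75. *Zc3h12a* (Regnase-1), an RNase that acts on cytokine transcripts, rose by 1.00, and the other 4 of these 8 factors were not called, again near the 52.8% called among all genes. The element is shown for *Tnf* and *Lta* because they alone among the ligands hold the nonamer TTATTTATT, the letters preferred by Zfp36 proteins. Each line is a window of 30 bases of the 3' UTR in the GENCODE M21 annotation of chromosome 17, starting 437 bases after the stop codon in *Tnf* and 304 bases after it in *Lta*, with the pentamer ATTTA in capitals.
Tnf: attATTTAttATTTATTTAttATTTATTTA
Lta: tatggagagaaaagttaagttATTTATTTA

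*Tnf* holds the nonamer 5 times and the pentamer 8 times in a 3' UTR of 764 bases, and *Lta* holds them 1 and 3 times in 572 bases. Of 10131 genes tested that have an annotated 3' UTR, 8.19% hold the nonamer at least once. *Tnfsf11* holds no nonamer but 6 pentamers in 1131 bases, and *Ltb*, which fell, holds neither in 174 bases. Among the other ligands the pentamer was found 1 to 10 times, with the most in the long 3' UTR of *Tnfsf8* (2799 bases). These counts describe the sequence only, and whether they bear on the levels was not tested.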

How the data were processed

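PolyA+ RNA of 3 naive and 3 activated CD4+ T cell libraries was sequenced. Per the labels and the methods, the authors used HISAT2 2.0.5 for alignment to mm10, StringTie 1.3.3b for assembly and featureCounts 1.5.0-p3 for counting. The deposited log2 values, headed FPKM, range from 1.17 to 15.01. The sources used here give neither the batches ComBat was applied to nor the pseudocount, and such a correction can narrow the spread among replicates. Without read counts the depth is unknown, and no counting interval is given.

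The limma package (3.58.1, R 4.3.3; lmFit, and eBayes with trend, no covariate) was applied to the log2 values unchanged, with Benjamini-Hochberg adjustment over 10173 genes. The procedure was tested on simulated data. The simulated libraries were drawn independently, so that this test does not cover the near-identical libraries or the ComBat correction of the deposited values. Python 3.11.15 served for tables (pandas 2.3.3, numpy 2.4.6), the permutation test (scipy 1.17.1), sequence scans and figures (matplotlib 3.10.9). Positions and 3' UTRs come from GENCODE M21 (GRCm38/mm10), with the longest annotated 3' UTR per gene, and promoters come from RefSeq (GRCm38.p6). Members, gene lists and tests were chosen with earlier results of these data known. All 10 ligands and all tested receptors are named, with the 2 largest called changes in each direction of the shedding, signaling and RNA factor lists and genes a result turns on. The rule covered the cell type marker lists too, but these are given by sums and counts, with single markers named only where a ligand's value stands beside them. Alternatives were 3 pseudocounts, 2 filters, 3 scalings, limma without the trend, a replicate block, 2 fold thresholds, libraries left out and near-identical libraries averaged.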

Additional observations from a re-analysis of the deposited data

How the results depend on the processing

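All 8 called ligands kept their call and direction under each alternative in which they were tested. The stricter filter of 5 linear units left *Cd70* untested. Across all alternatives the log2 fold change ranged from 3.03 to 3.63 for *Lta*, 3.04 to 3.63 for *Tnf*, 2.99 to 3.53 for *Tnfsf11*, 1.56 to 2.02 for *Tnfsf14*, -1.97 to -1.34 for *Cd40lg* and -1.62 to -1.04 for *Tnfsf10*. *Ltb* ranged from -1.997 (quantile normalization) to -1.41 (without naive replicate 2). Quantile normalization moved the median of all genes from 0.13 to 0.00 and upper-quartile scaling moved it to -0.04. With a 2-fold threshold, called receptors dropped from 4 to 2, other ligands from 2 to 1, shedding genes from 3 to 1 and signaling genes from 9 to 2. Upper-quartile scaling raised called receptors to 6, and the stricter filter lowered them to 3. Called RNA factors rose from 4 to 7 with each of the pseudocounts and with no fold threshold. The added calls were *Rc3h2*, *Tia1* and *Elavl1*, whose log2 fold changes of -0.43, -0.48 and 0.54 missed only the fold threshold. With a pseudocount of 1 these became -0.60, -0.61 and 0.60. With each library left out in turn, 8 to 9 ligands, 4 to 5 receptors and 6 to 10 signaling genes were called. The difference of *Lta* minus *Ltb* then ranged from 4.84 to 5.15. With the replicate number as a block, 8 ligands were called (5 higher, 3 lower). Deviations of same-numbered libraries correlated at -0.01, -0.05 and -0.14 across genes, and not every library correlated best with its own number. These values thus showed no pairing by replicate number. They cannot tell whether the libraries were paired, since the batches of ComBat are unknown and the correction could have removed a shared deviation. The block moved the calls over all genes from 3175 higher and 2195 lower to 3181 and 2202. Unknown depth limits statements on genes near the base.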

Other observations

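Among all genes tested, those whose 6 library values, each centered on its own mean, lay closest to *Lta* were *Mif*, *Tk1* and *Nfkb2*, with root mean square differences of 0.13, 0.14 and 0.16 on the log2 scale. *Mif* encodes an inflammatory cytokine, *Tk1* the thymidine kinase of dividing cells and *Nfkb2* a subunit of NF-kB. Closest to *Ltb* were *Gpsm3*, *Smpd5* and *Limd2*, with differences of 0.08, 0.09 and 0.09. With 6 libraries in 2 groups, likeness mostly reflects a similar size of change, and it is given as a description.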
